A study of Drosophila melanogaster with 36 samples.

Results

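The genes described here are the nuclear genes of oxidative phosphorylation in Drosophila melanogaster, taken as every symbol of the count files that begins with ND-, Sdh, UQCR-, COX4 to COX8 or ATPsyn. The rule found 87 of 17582 symbols. Of these, 40 belonged to complex I, 8 to complex II, 9 to complex III, 15 to complex IV and 15 to complex V. A symbol ending in L, or in L and a digit, names a second copy resembling a subunit gene, called an L paralogue below, and 24 members were of this kind (6, 3, 3, 8 and 4 in complexes I to V). ND-MNLL, whose final letters belong to its protein name, was counted among the other 63 members, which are called general copies and are 34, 5, 6, 7 and 11 by complex. The name prefixes also brought in Sdhaf3, an assembly factor of complex II rather than a subunit. They left out subunits with other names, such as RFeSP, Cyt-c1, levy, cype, blw and sun.

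Mitochondria make most of the ATP of a cell by oxidative phosphorylation. Complexes I and II pass electrons from NADH and succinate to ubiquinone, complex III passes them to cytochrome c, and complex IV passes them to oxygen. Complexes I, III and IV pump protons across the inner membrane, and complex V, the ATP synthase, makes ATP as protons flow back. A few core subunits are encoded in mitochondrial DNA and all others in the nucleus, and in Drosophila many nuclear subunit genes have duplicates with expression biased to the testis.

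Whole flies labelled as wild type (WT) were studied in 12 groups of 3 libraries. Both sexes breathed either an aerosol of CMIT/MIT at 330 mg/m3 for 1 h or filtered air, and were sampled on day 1, day 2 and day 7. CMIT/MIT is a pair of isothiazolinone biocides used as preservatives. The groups were therefore males in air, exposed males, females in air and exposed females, each on those 3 days, with no other allele or agent named. RNA was read from the 3′ ends of transcripts, so that a gene's count does not grow with its length, and total counts ran from 4681333 to 17182966 per library. The labels do not say whether replicate libraries came from separate cultures of flies, so p-values measure the spread between libraries, which may be technical. In whole flies, fewer cells of a type and less RNA per cell cannot be told apart.

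Before any result, 3 libraries need naming. The library labelled male, day 2, exposed, replicate 3 and the library labelled female, day 2, exposed, replicate 1 each held markers of both sexes. Over 100 CPM of roX1, an RNA of the male dosage compensation complex, and over 1000 CPM of the yolk protein gene Yp1 marked them. CPM are library-size-scaled counts, adjusted here with the trimmed mean of M-values (TMM). Their 3 dosage compensation markers summed to 255.7 and 286.7 CPM, against 940.4 to 1926 in the other male libraries and 1.37 to 11.5 in the other female ones. These are called the mixed libraries. The air library of females on day 2, replicate 1, stood apart in another way: its general copies summed to 22150 CPM, against 11240 to 13820 CPM in the other 8 female air libraries. More is given where leaving out one of these libraries moved a median of the members by over 1.5 times or turned its sign. The same holds for genes named for exposure or days on day 2. It is the value without that library, or the range with each library left out in turn.

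The 24 L paralogues differed in gene structure from the general copies in the Ensembl annotation of dm6, the build named in the submitters' processing notes. No transcript had more than 1 exon for 6 of 24 L paralogues, against 0 of 63 general copies. At most 2 exons were annotated for 18 of 24 and 12 of 63, and the median gene spanned 744 and 1178 bases. In 18 of 24 pairs the paralogue had fewer exons than its general copy. SdhBL alone lay on the X chromosome (chrX:18894446-18896581), whereas 12 general copies did. The pairs were mostly dispersed, with 7 of 24 on the same chromosome arm and 3 within 10000 bases, namely COX5B and COX5BL, COX7C and COX7CL, and COX7A and COX7AL. Exons of another gene overlapped those of 3 L paralogues (COX5BL, COX6AL2 and COX7CL) and of 34 general copies, 7 of them on the same strand. The strand setting of the counting is not given in the sources used here, so counts of those genes are less certain. ND-MNLL had 0 counts in all 36 libraries, and its exons overlap those of CG45089 on the same strand.

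The L paralogues were read mainly in males. Summed over all 24, their level in air was 707.1 ± 76.7 CPM in males (SD, n = 9) and 37.2 ± 25.3 CPM in females (SD, n = 9). The sums ran from 569.4 to 855.8 CPM in the male air libraries and from 14.3 to 87.3 CPM in the female ones, so the sexes did not overlap. The general copies together summed to 17620 ± 2011 CPM in males and 13620 ± 3333 CPM in females, and these ranges overlapped (15160 to 21360 and 11240 to 22150 CPM). Of all reads of the members, L paralogues took 2.60% to 5.47% in the 17 male libraries that were not mixed, with a median of 4.05%. In the 17 such female libraries they took 0.122% to 0.498%, with a median of 0.153%.

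Between the sexes in air, averaged over the 3 days, edgeR's quasi-likelihood test at an adjusted p (Benjamini-Hochberg) under 0.05 called all 24 L paralogues lower in females. Of the 13241 genes tested, 86.7% were called, 50.7% lower and 35.9% higher, so a sex difference was the usual state of a gene in these flies. All 24 passed the filter on low counts, which their male libraries alone were enough to ensure. The median log2 difference, females minus males, was -9.33, against -0.69 over all genes tested. Fitted values of genes at or near 0 counts depend on the prior count. With the 2 paralogues that had no female count set at their bound, the median was -9.19. By complex the medians of the paralogues were -9.19, -9.78, -9.27, -9.95 and -8.78 for I to V.

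Among the complex I paralogues, ND-24L and ND-B14.5AL, copies of an iron-sulfur subunit of the NADH-oxidising arm and of an accessory subunit, had 0 counts in the 9 female air libraries. Against a floor of 3 counts per library, and without TMM factors, they were at least 37.3-fold and 34.3-fold higher in males. Their levels in males with TMM factors were 9.82 and 9.03 CPM. ND-20L, a copy of an iron-sulfur subunit, and ND-49L, a copy of a core subunit near the quinone site, were at 10.3 and 9.63 CPM in males. Each of the latter had 1 count over the 9 female libraries. ND-51L1 and ND-51L2, copies of the flavin-binding subunit that takes electrons from NADH, were at 9.55 and 3.79 CPM in males. ND-51L1 had 56 female counts and a log2 difference of -4.23 (SE 0.66, adjusted p from edgeR 1.08e-06).

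In complex II, SdhBL, a copy of the iron-sulfur subunit of succinate dehydrogenase, had the second highest male level of the L paralogues. Its levels in male air libraries were 73.6, 138 and 100 CPM on day 1, then 124, 105 and 53.4 on day 2, and 111, 106 and 98.2 CPM on day 7. In female air libraries it lay between 0 and 0.276 CPM, so no library of either sex came near the other. SdhCL, a copy of a membrane anchor subunit, was at 29.5 CPM and SdhAL, a copy of the flavoprotein, at 7.71 CPM in males. In complex III, UQCR-11L, UQCR-14L and UQCR-6.4L, copies of small subunits, were at 14.8, 14.4 and 10.4 CPM in males, and UQCR-11L differed least between the sexes of these 3, by a log2 value of -6.91.

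In complex IV, COX7AL2 had the highest male level of all L paralogues and was the one with a clear female level. Males in air had 119 ± 28.8 CPM (SD, n = 9, range 93.0 to 187) and females 35.2 ± 25.1 CPM (SD, n = 9, range 11.02 to 84.1). Its log2 difference of -1.96 (SE 0.24, adjusted p from edgeR 1.98e-08) was the smallest of the 24, and the sexes did not overlap. It lies on chr2L:2192525-2197912 with up to 3 exons in a transcript and codes for a protein resembling subunit 7A, which sits on the outside of the complex. The remaining copies of complex IV subunits followed at 61.2 CPM for COX7AL, 48.5 for COX4L, 46.1 for COX6CL, 36.02 for COX7CL, 28.6 for COX5BL, 26.4 for COX6AL and 17.3 CPM for COX6AL2. All of these had at most 32 counts over the 9 female air libraries. In complex V, ATPsynGL, a copy of a membrane subunit, was at 40.0 ± 13.3 CPM in males (SD, n = 9). It had 2 female counts and the lowest log2 value of all members, -10.56. ATPsynCF6L and ATPsynbetaL, copies of a stalk subunit and of the catalytic subunit, were at 29.0 and 8.52 CPM. ATPsynepsilonL, a copy of the central-stalk subunit encoded by sun, was at 17.1 CPM, with a log2 difference of -5.35. For the 10 paralogues with 1 to 3 female counts in all, the ratio of male to female counts ran from 435.9 to 2211. It was scaled by the total counts of the 9 air libraries of each sex, without TMM factors. The lowest bound of the exact 95% intervals of these ratios was 77.8. These intervals cover counting error only.

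Over days in air the level of the paralogues in males was much the same. Their sums in males were 715.1 ± 41.6, 699.0 ± 145 and 707.2 ± 23.9 CPM on days 1, 2 and 7 (SD, n = 3 each). For single paralogues, the highest daily mean divided by the lowest had a median of 1.30 and ran from 1.06 for UQCR-6.4L to 1.61 for COX6AL2. At least 1 CPM was reached by 23 of 24 in every male library, the mixed one included. Markers of the male germline were lower in females alongside them: 17 of 18 were called lower in females (median log2 -10.02), and their sum was 3271 CPM in males and 14.3 CPM in females. The exception was bam, a gene of early germ cells in both sexes, which was higher in females (7.6). The part of germ cells in the level of the paralogues was not tested.

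Set against its own general copy, a paralogue took a small share of the pair's reads in most pairs. These are shares of 3′ reads and not of molecules, since a copy can be read with another efficiency. In males in air the share was largest for COX7AL2 against COX7A, at 39.4 ± 7.87% (SD, n = 9), and for SdhBL against SdhB, at 38.7 ± 7.71%. COX7AL against COX7A followed at 25.7 ± 6.79%, then UQCR-11L at 10.9% and SdhCL at 10.02%. The other 19 pairs ran from 0.899% for ND-51L2 to 9.21% for COX7CL. In females in air, COX7AL2 took 20.5 ± 12.6% (SD, n = 9, range 7.86% to 42.2%), and the highest mean of any other pair was 0.237%, for ND-51L1. The 2 mixed libraries lay between the sexes for SdhBL, at 7.36% (labelled male) and 15.4% (labelled female).

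The general copies differed between the sexes by much less, and mostly in the same direction. Of 62 tested, 48 were called lower and 5 higher in females (the background is given above), with a median log2 difference of -0.47. All genes tested had a median of -0.69, so the general copies lay 0.22 above the typical gene. The order of the 2 medians held with DESeq2 size factors in place of TMM, which moved the median of all genes to -1.06 and that of the general copies to -0.84. Under those factors 56 general copies were called lower and 1 higher. Counts per complex were 28 lower and 1 higher of 33 in complex I (median -0.51), and 4 lower and 1 higher of 5 in complex II (median -0.61). The 1 higher in complex II was Sdhaf3, the assembly factor, which also enters that median. Complex III had 4 lower and 1 higher of 6 (median -0.41), complex IV 6 lower and 0 higher of 7 (median -0.49), and complex V 6 lower and 2 higher of 11 (median -0.34). General copies on the X chromosome had a median of -0.46 over 11 genes, and those on the other chromosomes -0.47 over 51. General copies that have an L paralogue (18 tested) and those that have none (44) had medians of -0.44 and -0.48.

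**Figure D1:**
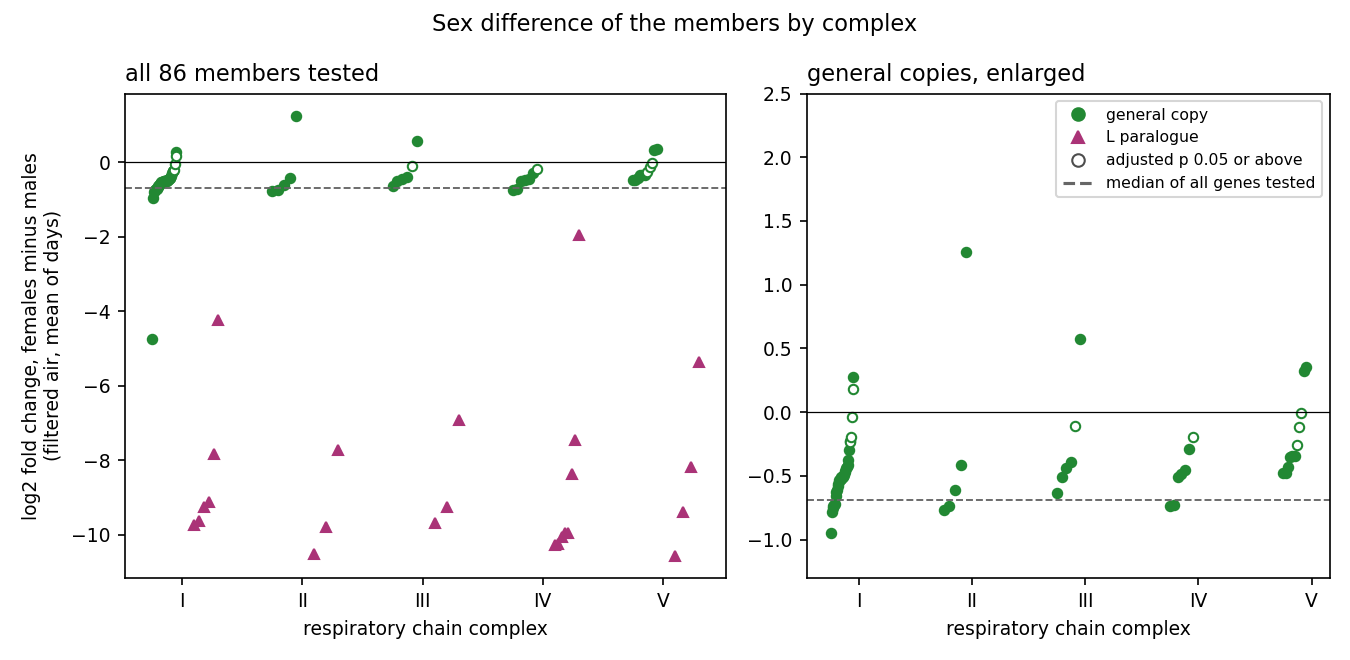
Log2 difference of each member, females minus males in filtered air averaged over days (y axis), by complex (x axis), for all 86 members tested (left) and for the general copies on an enlarged axis that leaves out ND-B8 at -4.75 (right). Filled points had an adjusted p under 0.05 by edgeR's quasi-likelihood test, and the dashed line is the median of all genes tested (-0.69). The L paralogues lie at -1.96 or below, and all general copies except ND-B8 lie within the right panel.

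Of the 62 general copies, 5 did not overlap between the sexes on the lower side over the 9 libraries each, and 1 on the higher side. Over all genes tested, 29.3% did not overlap on the lower and 21.5% on the higher side. ND-51, the flavin-binding subunit of complex I, ranged from 345.6 to 493.4 CPM in males (median 437.5) and from 177.3 to 316.2 CPM in females (median 199.0). Its log2 difference was -0.95 (SE 0.10, adjusted p 2.14e-09), the smallest p of the general copies of complex I. SdhB ranged from 125.9 to 199.5 CPM in males and from 82.7 to 107.7 CPM in females, and SdhA, the flavoprotein subunit, from 245.9 to 423.5 and from 153.1 to 196.0 CPM. Their log2 differences were -0.74 and -0.77. UQCR-Q, a small subunit of complex III, was at 542.1 ± 73.0 CPM in males and 347.9 ± 40.6 CPM in females (SD, n = 9 each). ND-B8, an accessory subunit of complex I, was at 26.6 CPM in males (17.1 to 49.3) and between 0 and 12.4 CPM in females, with the largest difference of any general copy (-4.75, SE 0.64). Its single annotated transcript on chr2L:4454626-4455207 overlaps exons of Gs1l on the other strand. Other general copies with the lowest p in their complex were ND-23, an iron-sulfur subunit (-0.66), UQCR-C1, a core protein of complex III (-0.44), and COX6B and COX4, nuclear subunits of complex IV (-0.73 and -0.74). In complex V these were ATPsynD and ATPsynO, subunits of the peripheral stalk (-0.48 and -0.47).

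The 5 general copies called higher in females were Sdhaf3 (1.26, SE 0.18), UQCR-11 (0.58, SE 0.12), ATPsyndelta (0.36), ATPsynbeta (0.32) and ND-ACP (0.27). UQCR-11, a small subunit of complex III, ranged from 82.6 to 151.8 CPM in males and from 152.7 to 307.9 CPM in females, so the sexes did not overlap. By day its log2 difference was 0.70 and 0.85 on days 1 and 2 and 0.18 on day 7, where it did not pass the test (adjusted p from edgeR 0.415). Over the mean of days its call was lost with DESeq2 (adjusted p 0.0532) and with DESeq2 size factors in edgeR (0.21, adjusted p 0.0602). Sdhaf3 was at 12.2 ± 3.46 CPM in males and 29.3 ± 10.8 CPM in females (SD, n = 9 each), and the sexes overlapped. With DESeq2 size factors the values of ATPsyndelta, a central-stalk subunit, ATPsynbeta, the catalytic subunit, and ND-ACP, the mitochondrial acyl carrier protein, turned to -0.01, -0.05 and -0.10, so their direction was not stable. ND-19, an accessory subunit of complex I that did not pass the test, was at 0.18 and turned to -0.19. Of the 10 fixed examples spread over the complexes, 9 passed the test in this comparison, and they ran from -0.79 for ND-75 to 0.32 for ATPsynbeta.

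Day by day, the L paralogues were lower in females in 24 of 24 cases on each day. The general copies varied more, with 32 lower and 2 higher on day 1, 16 and 5 on day 2, and 49 and 1 on day 7. The shares of all genes called on those days were 73.5%, 70.7% and 72.3%, of which 44.2%, 39.4% and 42.0% were lower and 29.3%, 31.3% and 30.3% higher. With DESeq2 size factors the general copies called were 51 lower and 1 higher on day 1, 41 and 2 on day 2, and 55 and 0 on day 7, so the low count of day 2 depended on the scaling. With TMM their medians were -0.47, -0.21 and -0.65, beside -0.74, -0.41 and -0.67 over all genes. Without replicate 1 of females in air on day 2, that day had 38 lower and 3 higher with a median of -0.51 (all genes -0.70). On day 1, single libraries moved the count too: without replicate 1 of males in air it was 15 lower and 2 higher, and without replicate 1 of females in air 14 lower and 2 higher. Markers of flight and body muscle, a tissue rich in mitochondria, were lower in females in 14 of 14 cases, with a median of -2.20, and summed to 5677 ± 1435 CPM in males and 1168 ± 155 CPM in females (SD, n = 9 each). Neuronal markers were lower in 8 of 8 cases (median -2.82, sums 944.6 CPM in males and 211.2 CPM in females) and fat body markers in 3 of 5 (median -1.18, sums 2801 and 1293 CPM). Midgut markers were lower in 4 of 9 and higher in 2 (median -0.06, sums 7918 and 3860 CPM). Ovary and eggshell markers were higher in females in 10 of 10 cases and summed to 23.6 CPM in males and 12790 CPM in females. The part of any of these tissues in the level of the general copies was not tested.

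Related genes outside the naming rule had mixed differences between the sexes in air, by the same test, which called 50.7% of all genes lower and 35.9% higher in females. Of 8 other nuclear subunits, 7 were called lower in females, among them ox (-1.0) and cype (-0.94), and sun was higher (0.55). Among the 7 was knon (-10.09), a testis form of an ATP synthase subunit, which lay as low as the L paralogues. So did Cyt-c-d, the second cytochrome c gene (-10.68), while Cyt-c-p was higher in females (0.58). The sexes overlapped for Cyt-c-p (40.6 to 118.8 CPM in males, 49.3 to 170.5 CPM in females). They also overlapped for sun (186.8 to 388.5 and 206.0 to 996.5 CPM). Values of these genes with DESeq2 size factors are not given here. Of the 13 subunits encoded in mitochondrial DNA, 3 were lower and 1 higher, with a median of -0.23. Genes that copy and transcribe that DNA went the other way: 7 of 7 tested were higher in females, with a median of 2.52, including TFAM (2.52), mtSSB (3.58) and mtDNA-helicase (3.82). Assembly factors were higher in 6 of 7 tested (median 1.26), with Surf1, a complex IV factor, at 2.18. That list shares Sdhaf3 and ND-ACP with the members, and COX10, COX11, COX15, COX18, Ecsit, Ndufaf5 and Oxa1L of it were not matched by symbol and not analysed here. Of 5 regulators of nuclear mitochondrial genes, 4 were higher, srl, the PGC-1 homologue, by 4.06. The ovary markers were higher in females beside these 3 lists, at the sums given above, and their part in them was not tested. Of 7 carriers and uncouplers, 4 were lower, among them Ant2, an ADP/ATP carrier (-4.25), and Ucp4B (-8.60). Of 7 genes of alternative energy routes, 2 were higher and 2 lower, with Ldh, lactate dehydrogenase, at -2.64.

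Exposure to CMIT/MIT gave no call among the members in any of the 6 comparisons of exposed and air flies by edgeR's quasi-likelihood test at an adjusted p under 0.05. The share of all genes called was 0.263%, 0.455% and 0.0101% in females on days 1, 2 and 7, and 0.0% in males on each day. At an unadjusted p under 0.05, members numbered 7, 13 and 1 of 66 tested in females and 0, 12 and 0 of 86 tested in males, where the 12 became 6 without the mixed library. The shares of all genes at that level were 12.7%, 9.52% and 3.28% in females and 3.17%, 21.8% and 0.932% in males. DESeq2 called 1 member in females on day 1 (COX7AL2), 3 in males on day 2 (ND-18, ND-B14.5A and ND-51) and none in the other 4. The shares of all genes called by DESeq2, or with single libraries left out, are not given here. Those counts therefore have no background beside them. In the fits of females, 62 general copies and 4 L paralogues passed the filter on low counts. The 20 L paralogues left out of those fits were near 0 in female libraries other than the mixed one.

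Among females, the general copies had a median below 0, exposed minus air, on day 1 and above 0 on day 7, without any gene passing the test, and the value of day 2 rested on a single air library. On day 1 the median log2 difference, exposed minus air, was -0.14 (44 of 62 below 0, all genes -0.00). As the median over general copies of each library's difference from the mean of the air libraries, the air libraries were at -0.11, 0.10 and -0.02 and the exposed ones at -0.14, -0.18 and -0.13. The arms did not overlap, though the highest exposed library lay close to the lowest air library. Taken by complex, these library medians overlapped between arms for complexes I and V, and did not for complexes II, III and IV. Complex II and complex IV had the lowest medians that day, at -0.32 and -0.27, and complexes I, III and V were at -0.09, -0.11 and -0.09. Between arms, 13 general copies did not overlap on the lower side, against 9.24% of all genes, and 1 on the higher side, against 7.32%.

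The members with the smallest p on that day belonged to complex IV. COX7AL2 was at 39.0, 67.5 and 27.3 CPM in air and at 16.5, 13.98 and 14.6 CPM after exposure, so the arms did not overlap. Its log2 difference was -1.55 (SE 0.44), with an adjusted p from edgeR of 0.143 and from DESeq2 of 0.0367. Leaving out a library at a time gave edgeR values from 0.111 to 0.367. COX4, a large nuclear subunit, was at 526.1, 642.7 and 584.0 CPM in air and 370.1, 315.5 and 374.2 CPM after exposure. These arms did not overlap either, and the log2 difference was -0.71 (SE 0.21, adjusted p from edgeR 0.162). COX7A followed at -0.67 (SE 0.22, adjusted p from edgeR 0.194). The values with the smallest p on the higher side were 0.23 for UQCR-Q, 0.29 for ND-PDSW and 0.26 for ND-SGDH. Beside these, the 9 midgut digestive enzyme markers were all below 0 (median -2.20), and summed to 3292, 5113 and 3008 CPM in air and 950.8, 1126 and 818.3 CPM after exposure. The 13 mitochondrially encoded subunits were all below 0 as well, with a median of -0.43. Their part in the values of the members was not tested.

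On day 2 the general copies of females had a median of -0.35, with 57 of 62 below 0. Library medians were 0.49, -0.26 and -0.23 in air and 0.04 (mixed library), -0.38 and -0.40 after exposure, and the arms overlapped. Without replicate 1 in air the median was -0.01, with 33 of 62 below 0 and 0 of them at an unadjusted p under 0.05. Without the mixed library it was -0.40. The smallest p belonged to ATPsyndelta (-0.57, SE 0.19), ND-AGGG, an accessory subunit of complex I (-0.62), and COX5A, a complex IV subunit (-0.72). Their adjusted p-values from edgeR were 0.303, 0.395 and 0.4. Leaving out each library gave -0.69 to -0.28 for ATPsyndelta, -0.78 to -0.34 for ND-AGGG and -0.96 to -0.09 for COX5A. On the higher side, values were 1.89 for ATPsynepsilonL, 0.19 for SdhB and 2.09 for COX7CL. The paralogues ATPsynepsilonL and COX7CL were near 0 in air, with means of 0.45 and 0.489 CPM. Leaving out each library gave 1.1 to 2.66 for ATPsynepsilonL and -0.16 to 4.13 for COX7CL. Without the mixed library ATPsynepsilonL was at 1.10 (adjusted p from edgeR 0.843), SdhB at 0.18 and COX7CL at -0.16. Between arms, 3 general copies did not overlap on the lower side and 0 on the higher, against 4.89% and 6.05% of all genes. Midgut markers had a median of -2.37 and summed to 11740, 3044 and 2584 CPM in air, replicate 1 being the high library here too, and to 5778 (mixed library), 2342 and 763.7 CPM after exposure.

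On day 7 the sign was the other way, with a median of 0.18 and 55 of 62 general copies above 0. Library medians were 0.05, -0.01 and -0.03 in air and 0.08, 0.25 and 0.05 after exposure, so that the lowest exposed library met the highest air library. Complex IV had the highest median (0.29) and the other complexes were between 0.14 and 0.19. Between arms, 12 general copies did not overlap, all on the higher side, against 7.22% of all genes on that side and 11% on the lower. ND-B8 had the smallest p, with 0, 0 and 0.0918 CPM in air and 0.182, 3.91 and 1.14 CPM after exposure. At levels this near 0 its fitted value depends on the prior count, and its adjusted p from edgeR was 1. ND-75, a large iron-sulfur subunit of complex I, was at 0.48 and ND-B17 at 0.35. On the lower side ND-51L1 was at -3.75, ND-23 at -0.08 and ND-19 at -0.07. The value of ND-51L1 is also one near 0, with means of 0.585 CPM in air and 0.0352 CPM after exposure. Midgut markers summed to 2577, 2373 and 1010 CPM in air and 3150, 3021 and 3568 CPM after exposure, and all 13 mitochondrially encoded subunits were above 0 (median 0.45).

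**Figure D2:**
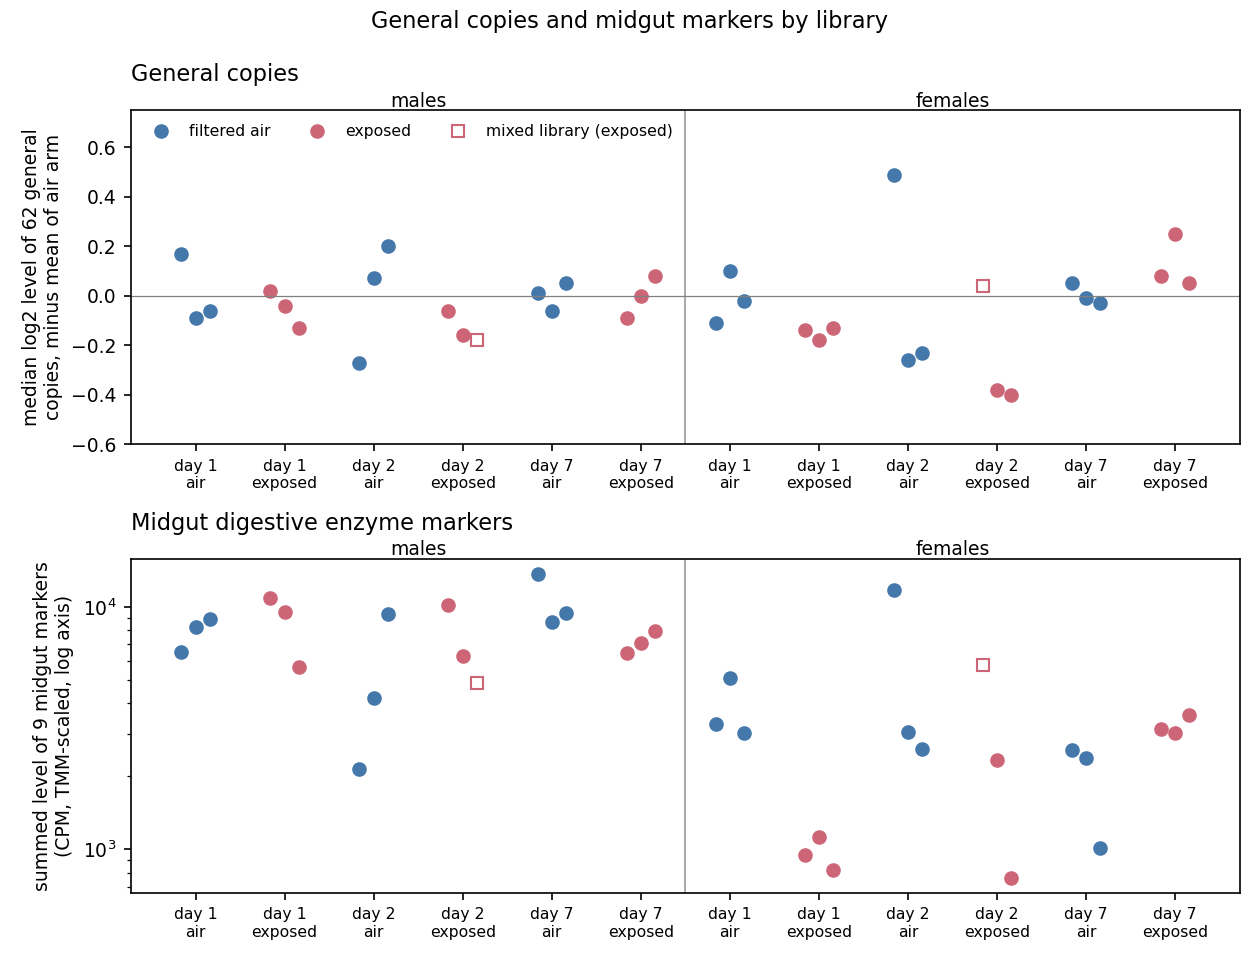
Upper panel: for each library, the median over the 62 general copies tested of the difference from the mean of the air libraries of its sex and day (y axis, log2 of CPM + 1). Lower panel: summed level of the 9 midgut markers in the same libraries (CPM, log axis). Exposed females on day 1 lie at -0.18 to -0.13, below the 3 air libraries, and replicate 1 of females in air on day 2 is the highest library of the upper panel, at 0.49.

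In males, the general copies had medians, exposed minus air, of -0.05, -0.14 and -0.00 on days 1, 2 and 7. On day 1 the L paralogues had a median of 0.24 with 20 of 24 above 0, and UQCR-14L, ND-24L and ATPsynbetaL had values of 0.88, 0.87 and 1.04 (adjusted p from edgeR 1 for each). Male germline markers had a median of 0.26 on that day. On the lower side Sdhaf3 was at -0.75, ND-75 at -0.38 and ND-B18 at -0.34. Between arms, 5 general copies did not overlap on the lower side and 3 L paralogues on the higher side, against 6.49% and 6.7% of all genes. On day 7, ATPsynbetaL was at 0.63, ND-49 at 0.25 and UQCR-11L at 0.52, and ND-19 at -0.32, COX6CL at -0.41 and COX6AL at -0.46. On that day 1 general copy and 2 L paralogues did not overlap, all lower, against 4.48% of all genes on that side and 3.97% on the higher.

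On day 2, complex I supplied the male members with the smallest p. ND-B14.5A, an accessory subunit, was at 177.5, 225.2 and 236.8 CPM in air and at 146.0, 128.1 and 108.5 CPM (mixed library) after exposure. The arms did not overlap, and the log2 difference was -0.71 (SE 0.20), with an adjusted p of 0.0863 from edgeR and 0.0141 from DESeq2. Without the mixed library it was -0.63 with an adjusted p of 0.517. ND-51 was at 454.8, 462.1 and 460.5 CPM in air and 332.4, 298.7 and 250.8 CPM (mixed library) after exposure, again without overlap. Its difference of -0.61 (SE 0.19) had an adjusted p of 0.0901 from edgeR and 0.0109 from DESeq2, and of 0.558 from edgeR without the mixed library. ND-18, an accessory subunit on the NADH-oxidising arm, was at 75.6, 43.5 and 69.0 CPM in air and 92.2, 100.8 and 122.1 CPM (mixed library) after exposure. It was the only general copy whose arms did not overlap on the higher side, with a log2 difference of 0.78 (SE 0.23, adjusted p 0.0897 from edgeR, 0.591 without the mixed library). ND-B15 was at -0.63, Sdhaf3 at 0.87 and UQCR-11 at 0.41. Without the mixed library these were -0.59, 0.35 and 0.10, with adjusted p-values from edgeR of 0.642, 0.922 and 0.972. In all, 10 general copies and 1 L paralogue did not overlap on the lower side, against 5.49% of all genes, and 6.06% did not on the higher side. Leaving out replicate 1 of the exposed males gave 7 calls, 6 of them lower. That refit kept the mixed library, and 3 of its calls were L paralogues, whose median was then -1.1. The 24 L paralogues were all below 0 (median -0.53), as were 16 of 17 germline markers (median -0.47). Without the mixed library the median of the paralogues was -0.11, with 18 of 24 below 0.

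The exposure effect did not differ over days for any member by edgeR, in females (0.445% of all genes called) or males (0.0%). The smallest adjusted p-values in females from edgeR were 0.177 for ND-B8, 0.209 for COX7AL2 and 0.248 for COX4, and DESeq2 called ND-B8 (0.0148) and COX7AL2 (0.0498). Without replicate 1 of females in air on day 2, edgeR called 1 member. In female libraries COX7AL2 was at 84.1, 30.0 and 30.2 CPM in air and 39.9 (mixed library), 16.7 and 16.9 CPM after exposure on day 2. On day 7 it was at 11.8, 16.3 and 11.02 CPM in air and 17.4, 31.6 and 13.8 CPM after exposure. Exposed libraries were thus low on day 1 and overlapped with air on day 7. On day 2 the exposed libraries that were not mixed lay below all air libraries, and the mixed one lay within the air range. The log2 difference of COX7AL2 on day 2 was -1.09 (adjusted p from edgeR 0.443), and -1.48 without the mixed library. Leaving out each library gave -1.48 to -0.35. ND-B8 in females was at 1.10, 12.4 and 1.49 CPM in air and 0.360, 0.95 and 0 CPM after exposure on day 1.

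Between days in air, no member was called by edgeR in either sex. The share of all genes called was 0.0101% for day 2 and 0.0% for day 7 against day 1 in females, and 0.0622% and 0.0699% in males. In females the general copies had a median of 0.26 on day 2, which became -0.08 without replicate 1 of that day, and of -0.26 on day 7. For day 2, ND-AGGG had the smallest p (1.10, SE 0.23, adjusted p 0.104 from edgeR and 0.00656 from DESeq2), with ND-B14.7 at 0.85 and ATPsynE at 0.49. Lower values were -0.32 for UQCR-C1, -0.21 for SdhB and -0.17 for ND-30. Leaving out each library gave 0.33 to 1.09 for ND-B14.7 and 0.26 to 0.6 for ATPsynE. It gave -0.3 to -0.13 for SdhB and -0.52 to 0.0 for ND-30. For day 7, COX7AL2 was at -1.86 (SE 0.45, adjusted p 0.141 from edgeR and 0.00906 from DESeq2), ND-B8 at -6.94 (0.154 and 0.00658) and COX4 at -0.59. Higher values were 3.63 for COX7CL, 1.45 for ATPsynepsilonL and 0.21 for ATPsynbeta. Mean levels on day 7 and day 1 were 0.49 and 0.0332 CPM for COX7CL, and 0.622 and 0.211 CPM for ATPsynepsilonL. For ND-B8 they were 0.0306 and 5.01 CPM. At levels this near 0 the fitted values depend on the prior count. On day 7, 20 general copies did not overlap on the lower side and 2 on the higher, against 7.85% and 15.0% of all genes. On day 2 these were 1 and 17, against 3.21% and 11.1%. Midgut markers of females had medians of 0.55 and -0.90 on days 2 and 7.

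In males in air, the general copies had medians of 0.08 and -0.01 on days 2 and 7 against day 1. ND-B14.5A was at 0.61 on day 2 (adjusted p 0.320 from edgeR and 0.0465 from DESeq2), ND-B14.7 at 0.58 and ATPsynC, the membrane ring subunit, at 0.48. Lower values on that day were -0.47 for ND-75, -0.44 for ND-18 and -0.73 for Sdhaf3. On day 7 values were 0.45 for ND-13B, 0.56 for COX7A, 0.44 for ND-B14.7, -0.41 for UQCR-Q, -0.46 for ND-75 and -0.69 for COX6AL2. General copies without overlap were 3 higher and 1 lower on day 2 (7.53% and 7.28% of all genes) and 7 higher and 5 lower on day 7 (13.3% and 12.6%). The exposure and day comparisons of a sex share their air libraries, so these values are not independent of those given for exposure.

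Whether exposure acted differently in the 2 sexes was tested by the interaction of sex and exposure on each day. No member was called on day 1 (0.0151% of all genes) or day 7 (0.0%), and DESeq2 called 1 on day 7, COX7AL. Its mean level in females that day was 0.0306 CPM in air and 0.0 CPM after exposure. At levels this near 0 the fitted log2 value depends on the method, with -15.07 from DESeq2 and -1.81 (SE 3.32) from edgeR. On day 2, edgeR called 13 members, all L paralogues and all with a higher exposure effect in females, beside 12.2% of all genes called, 7.76% higher and 4.47% lower. Their log2 values ran from 4.76 for UQCR-6.4L to 7.82 for UQCR-14L. Of 18 germline markers, 11 were called the same way. Without the 2 mixed libraries 0 members were called, and the 13 values ran from -3.65 to 3.27. Leaving out either mixed library alone, or replicate 2 or replicate 3 of females in air, also gave 0 calls. Leaving out replicate 1 of males in air gave 3, and replicate 3 of exposed females 20. The general copies had a median of -0.12 in this comparison, beside -0.09 over all genes, and 0 of 62 were called by edgeR. Without the mixed libraries that median was -0.29. Leaving out single libraries gave -0.29 to 0.17, the value above 0 being that without replicate 1 of females in air. It gave up to 2 general copies called by edgeR (without replicate 3 of males in air, or replicate 2 of exposed males). With all libraries, DESeq2 called the same 13 paralogues on day 2, and ND-20L, ND-49L, ATPsynbetaL and SdhAL in the same direction. It also called Sdhaf3, a general copy, in the other direction (-1.08, adjusted p 0.0487 from DESeq2 and 0.0524 from edgeR). The share of all genes called by DESeq2 is not given here.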

How the data were processed

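Whole-fly total RNA was extracted with Trizol and read as 3′-end (QuantSeq) libraries, per the labels' protocols. The deposited files hold raw counts per gene symbol for each library, made by the authors with fastp, STAR and HTSeq on dm6, per the submitters' processing notes; no version, annotation or strand setting is stated there. A blank entry held at most 0.000107% of counts and was left out, and 0 per-sample columns were unused. Libraries were grouped by their titles and treatment labels.

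The members, lists and tests were chosen with earlier results of these data known. Counts were tested on the whole table with edgeR 4.0.16 in R 4.3.3 (glmQLFit, glmQLFTest, filterByExpr with a minimum count of 10 and total of 15, TMM), with p-values adjusted over all genes tested and a threshold of 0.05. The 18 libraries of a sex were fitted together for exposure and days (9893 genes in females, 12871 in males), and all 36 for sex and its interaction with exposure. SE was the log2 difference divided by the root of F. Levels are CPM with TMM factors over all 36 libraries. A floor of 3 counts per library bounds values at 0. Named genes were 10 fixed examples, every L paralogue for sex, and the smallest p per direction (3 for exposure and days, 2 per complex for sex). Alternatives were DESeq2 1.42.0, its size factors in edgeR, no filter, at least 5 CPM in 3 libraries, a replicate block, no mixed libraries, each library left out, and over 1.5-fold with an unadjusted p under 0.05. The fit was tested on simulated data with known changes. All 87 members matched the annotation by symbol. Depth sets the precision: 3 counts were 0.175 to 0.641 CPM, by library.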

Additional observations from a re-analysis of the deposited data

Results flagged for a closer look

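On day 2 the exposure effect differed between the sexes for 13 L paralogues, by the interaction of sex and exposure (edgeR's quasi-likelihood test, adjusted p from 0.0187 to 0.0445). As log2 values, females minus males, they were 5.41 for ATPsynCF6L, 7.15 for ATPsynGL, 7.31 for COX4L, 7.48 for COX6AL, 7.13 for COX6AL2, 6.02 for COX6CL and 5.80 for COX7AL. The others were 6.27 for ND-24L, 6.25 for ND-B14.5AL, 6.37 for SdhBL, 5.69 for SdhCL, 7.82 for UQCR-14L and 4.76 for UQCR-6.4L. The day-2 exposed libraries include both mixed libraries, whose L paralogues summed to 164.2 CPM (labelled male, other male libraries 541.6 to 893.2) and 177.4 CPM (labelled female, other female libraries 14.3 to 87.3). Without them 6 of the 13 values were negative, and the lowest adjusted p was 0.686.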

How the results depend on the processing

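Counts of members called changed as follows. With no filter on low counts, 1 was called in exposed females on day 1 and 1 in females in air on day 7 against day 1. DESeq2 called 1 in exposed females on day 1, 2 for the exposure effect over days in females, 1 and 2 in females in air on days 2 and 7, 3 in exposed males on day 2, 1 in males in air on day 2 and 1 for the sex difference in exposure effect on day 7. At over 1.5-fold with an unadjusted p under 0.05 there were 4, 6 and 1 in exposed females on days 1, 2 and 7, and 3 and 3 in females in air on days 2 and 7. That rule gave 9 in exposed males on day 2, 1 in males in air on day 2, 41 for sex in air (40 lower, against 77), and 3, 26 and 1 for the sex difference in exposure effect. At the main threshold, the 13 calls for the sex difference on day 2 became 0 without the 2 mixed libraries. Leaving out each library gave 0 to 1 calls for the exposure effect over days in females, 0 to 7 in exposed males on day 2 and 0 to 20 for the sex difference in exposure effect on day 2. It gave 40 to 57, 37 to 65 and 66 to 74 for sex in air on days 1, 2 and 7, 75 to 80 for their mean, and 0 in the rest. DESeq2 size factors in edgeR, and at least 5 CPM in 3 libraries, left all 19 counts within 1.5 times.

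Values turned sign for COX7CL in exposed females on day 2 (-0.16 without the mixed libraries, and -0.16 to 4.13 leaving out each library) and for ATPsynGL in the sex difference on day 2 (-1.29 without the mixed libraries, and -0.86 to 8.79 leaving out each library). In sex in air, size factors and DESeq2 turned ND-ACP (-0.10), ND-19 (-0.19), ATPsyndelta (-0.01) and ATPsynbeta (-0.05). Leaving out each library also gave values on both sides of 0 for ND-19 in exposed females on day 7 (-0.19 to 0.04), ATPsynepsilonL in females in air on day 7 (-0.14 to 2.09), and COX7AL2 in exposed males on day 1 (-0.31 to 0.19) and day 7 (-0.14 to 0.03). The cause was not tested.

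Replicate numbers were not taken to pair the samples, since in no pair of groups were all same-numbered correlations over 0.1. Exposed females and males on day 7 came close, at 0.168, 0.307 and 0.0999. Whether same-numbered libraries shared a batch was not tested. With a replicate block, 0 members were called in the exposure and day comparisons, 56, 47, 74 and 77 for sex in air on days 1, 2 and 7 and their mean, and 13 for the sex difference on day 2.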
